A study of Rattus norvegicus with 6 samples.

Results

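Fatty acid oxidation and its PPAR regulators were examined in NRK-52E cells, an established epithelial line from rat kidney tubule, through a named set of 37 genes. The genes were listed by name, with earlier results of these data known. Of the 37 genes, 36 had a gene value among the 18166 genes of the arrays. Cd36, which encodes a fatty acid uptake receptor, had a probe set annotated with several symbols and was not used. Total RNA was measured on 6 arrays. The 3 control arrays and the 3 NICD1 arrays held the same line grown in the same serum-containing medium, and in the NICD1 group the intracellular domain of Notch1 was overexpressed with pINDUCER21, a lentiviral vector built for inducible expression. The sources used here do not give what the control cells carried, whether and for how long an inducer was added, or whether the cells were a single clone. The comparison asks which transcripts differ when the active part of the Notch1 receptor is in excess.

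Fatty acids enter a cell through membrane carriers, are held by binding proteins and are joined to coenzyme A by acyl-CoA synthetases. The carnitine shuttle then carries long chains into the mitochondrion, where each turn of beta-oxidation uses a dehydrogenase, a hydratase, a second dehydrogenase and a thiolase, and hands electrons to the respiratory chain through the electron transfer flavoprotein. PPAR alpha, delta and gamma are nuclear receptors that sense fatty acids, pair with RXR and activate many of these genes, with PGC-1 proteins as coactivators. In the kidney, tubule cells, above all those of the proximal tubule, draw much of their energy from this pathway.

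The members split in direction. The lipid droplet coat gene Plin2 rose 3.38-fold, 3 of the 4 long-chain acyl-CoA synthetases among the members rose, and the thiolase Acaa2 rose. The receptor Ppara fell 2.10-fold, and the shuttle genes Cpt1a and Crat, the dehydrogenases Acadl and Hadh, the hydratase Echs1, the reductase Decr1 and the synthetase Acsl3 also fell. All these values are differences of log2 RMA intensity, NICD1 minus control, tested with limma. A gene was called where the p adjusted by Benjamini-Hochberg across the 18166 genes was under 0.05. Of the 36 measured members, 13 were called (36.1%), against 14.7% of all genes. Of these, 5 were higher (13.9%, against 7.45% of all genes) and 8 were lower (22.2%, against 7.22%). Between the groups, the arrays did not overlap for 19 members (52.8%), against 32.8% of all genes. The members' median log2 difference was -0.04, and that of all genes 0.01. Among genes above the background level in at least 1 group, 21.8% were called, and 13 of the 31 such members (41.9%). That level, 5.74 on the log2 scale, is the 95th percentile of the mean values of 1397 chemosensory receptor genes, which were taken as silent in this line. Whether the members' share differs from that of other genes was not tested.

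Of the 13 calls, 9 held in every alternative processing at the 0.05 threshold, and those of Acsl5, Crat, Hadh and Decr1 did not. With 1 array left out at a time, the falls numbered 5 when it was number 2 of either group, 6 for control array 1 or 3 and for NICD1 array 1, and 7 for NICD1 array 3. The rises numbered 4 to 6. Calls among all genes numbered 1830 to 2486 in these fits, against 2666 with all 6 arrays.

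**Figure D1:**
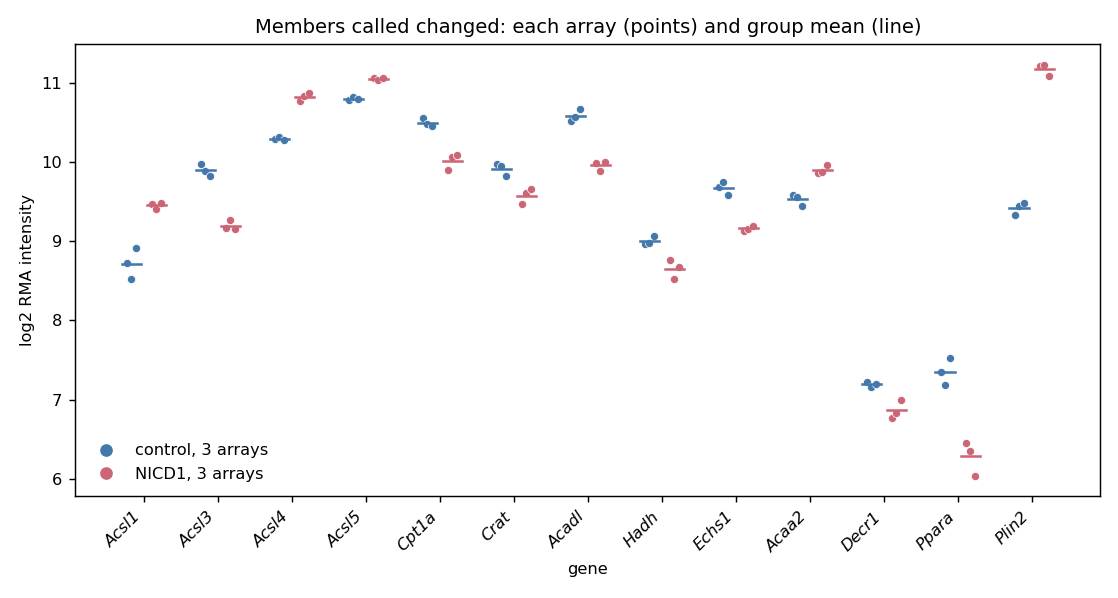
Log2 RMA intensity (vertical axis) of the 13 members called changed (horizontal axis), with a point for each array and a line at each group mean, control in blue and NICD1 in red. The blue and red points of each gene do not overlap, and the widest gap is that of Plin2, from 9.48 on the highest control array to 11.09 on the lowest NICD1 array.

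The arrays themselves showed the labelled groups. Median linear intensity was 57.5 to 60.1. Notch1 (Entrez gene 25496) read 8.66, 8.39 and 8.51 on control arrays 1 to 3 and 9.15, 9.12 and 9.26 on NICD1 arrays 1 to 3, a rise of 0.66 on the log2 scale (SE 0.081; limma adjusted p = 0.00181). The sources used here do not say whether its probes also read the introduced construct. Control replicate 1 stood apart on the second principal component (11.8% of the variance), at 16.2 against -7.35 and -8.99 for the other controls. Of 13 measured tubule epithelial markers, 3 (Krt8, Pax2 and Krt19) lay above background in at least 1 group, against 62.8% of all genes. Epcam, Cdh1, Cdh6, Cdh16, Krt18, Pax8, Lhx1, Vil1, Lrp2 and Cubn did not. The summed log2 level of the 13 was 69.2 to 70.7 in control and 71.5 to 72.2 in NICD1 arrays. Krt8 rose and was the only marker of the 13 called (7.69%, against 14.7% of all genes).

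PPAR alpha, the family member best known for driving fatty acid oxidation, showed the largest fall among the members. Ppara (Entrez gene 25747) read 7.35, 7.19 and 7.52 on the control arrays and 6.45, 6.35 and 6.04 on the NICD1 arrays. Every NICD1 array lay below every control array, and both groups lay above background. The mean fell from 7.35 ± 0.17 to 6.28 ± 0.22 (SD, n = 3 each), by 1.07 on the log2 scale (SE 0.128; limma adjusted p = 0.00152), and the fall was 0.95 to 1.16 when arrays were left out in turn.

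The other PPAR genes and the coactivators were not called. Ppard, which encodes the widely expressed PPAR delta, read 7.46, 7.36 and 7.24 in control and 7.42, 7.58 and 7.53 in NICD1 cells, a difference of 0.15 (SE 0.076; limma adjusted p = 0.267), and its groups overlapped. It is the only member with more than 1 probe set. The brighter one read 8.83 to 8.96 in control and 9.05 to 9.28 in NICD1 cells, without overlap. The other, near background, read 5.66 to 5.97 and 5.78 to 5.94, with overlap. Over the 15 alternatives, the brightest probe set among them, the Ppard difference was 0.09 to 0.26. It was called in none of them (lowest limma adjusted p 0.0592). Pparg, the adipocyte regulator, read 5.41, 5.34 and 5.47 in control and 5.42, 5.38 and 5.38 in NICD1 cells, below background throughout (difference -0.01, SE 0.055). The group means of the coactivator genes Ppargc1a and Ppargc1b also lay below background. Ppargc1a, encoding PGC-1 alpha, read 3.82, 3.53 and 3.40 against 3.60, 3.41 and 3.49, and Ppargc1b, encoding PGC-1 beta, 5.67, 5.53 and 5.66 against 5.35, 5.42 and 5.58. Their differences were -0.08 (SE 0.112) and -0.17 (SE 0.078), and for each gene the control and NICD1 ranges overlapped. At these intensities a difference would be hard to measure.

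Perilipin 2 coats lipid droplets, the stores of neutral fat in the cytoplasm, and its gene is a known PPAR target. Plin2 (Entrez gene 298199) read 9.33, 9.45 and 9.48 on the control arrays and 11.21, 11.23 and 11.09 on the NICD1 arrays. The separation between groups was far wider than the spread within them. The mean rose from 9.42 ± 0.08 to 11.18 ± 0.08 (SD, n = 3 each), by 1.76 on the log2 scale (SE 0.067; limma adjusted p = 1.35e-05). This was the largest change among the members. Ucp2, the mitochondrial uncoupling protein gene listed with it, read 6.39 to 6.67 in control and 6.70 to 6.75 in NICD1 cells. Those ranges did not overlap, but the difference of 0.19 (SE 0.079) was not called (limma adjusted p = 0.182).

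Promoter sequence upstream of the genes was read for 3 called members: Plin2 and Ppara, which had the largest rise and fall, and Echs1, the only called member whose window held AGGTCA, the hexamer that PPAR and RXR recognise as a spaced pair. Each run below is the 250 bases before the RefSeq transcript start in rat build GRCr8, 5′ to 3′ on the gene's strand. Plin2 lies at chr5:106229019-106229268 (minus strand), Ppara at chr7:118712357-118712606 (plus strand) and Echs1 at chr1:204333507-204333756 (minus strand). Capitals mark CACGTG in Plin2, CACGCG or its reverse complement in Ppara and AGGTCA in Echs1.
Plin2: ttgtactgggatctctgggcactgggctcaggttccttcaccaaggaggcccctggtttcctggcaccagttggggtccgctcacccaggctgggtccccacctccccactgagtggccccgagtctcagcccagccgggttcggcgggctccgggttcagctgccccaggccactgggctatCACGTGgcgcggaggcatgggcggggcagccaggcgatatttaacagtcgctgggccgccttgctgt
Ppara: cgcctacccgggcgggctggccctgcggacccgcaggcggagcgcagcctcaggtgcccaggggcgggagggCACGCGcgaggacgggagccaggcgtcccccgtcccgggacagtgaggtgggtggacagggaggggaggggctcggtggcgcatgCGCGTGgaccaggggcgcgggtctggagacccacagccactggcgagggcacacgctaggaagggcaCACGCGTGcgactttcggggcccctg
Echs1: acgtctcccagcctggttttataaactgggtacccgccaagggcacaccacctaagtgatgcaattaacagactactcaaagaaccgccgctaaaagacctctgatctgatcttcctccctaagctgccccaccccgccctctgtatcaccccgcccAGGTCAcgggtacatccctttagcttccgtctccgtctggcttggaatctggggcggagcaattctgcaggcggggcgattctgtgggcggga

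Of the 36 measured members, 30 matched a RefSeq promoter window, among them 10 of the 13 called. Acadl, Acaa2 and Decr1 did not match. AGGTCA occurred on either strand in 14.1% of all 33469 windows and in 3 of the 30 members, Acadvl, Echs1 and Eci1, and in Echs1 it lay 93 to 88 bases before the start. The paired form, with 1 base between the copies, was in 0.0508% of all windows and in 0 members. TGGGAA, the core of the site bound by RBPJ, the DNA-binding partner of NICD1, was in 22.1% of all windows and in 4 members, none of them called: Ehhadh, Etfa, Pparg and Slc25a20. A further pair of hexamers, which helix-loop-helix repressors of the Hes and Hey families can bind, was searched after the windows had been seen. CACGTG occurred in 5.59% of all windows and among the members in Plin2, 67 to 62 bases before the start. CACGCG occurred in 7.14% of all windows and in 5 members, Acsl3, Crat, Etfa, Etfdh and Ppara, of which the first 2 and the last fell. The Ppara window held 4 matches, of which 2 overlap on opposite strands within 26 to 19 bases before the start. These matches describe letters in a window and do not show binding.

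Little signal was measured for uptake and binding. Fabp3, the heart-type fatty acid binding protein gene, read 5.20 to 5.80 in control and 5.50 to 5.74 in NICD1 cells. Fabp4, the adipocyte-type gene, read 3.72 to 3.98 and 3.58 to 3.94. Both lay below background on average in both groups, their groups overlapped, and neither was called (limma adjusted p = 0.744 and 0.686) or had an unadjusted p under 0.05.

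The 4 acyl-CoA synthetase members, Acsl1, Acsl3, Acsl4 and Acsl5, were all called, against 14.7% of all genes, and not in the same direction. The related Acsl6 and Acsbg1, read from a further list and named after their values were seen, were not called. Their differences were -0.10 and -0.01 (limma adjusted p = 0.6 and 0.926). Acsbg1 averaged 5.66 in control and 5.65 in NICD1 arrays, below background, and Acsl6 5.85 and 5.75, close to it. At these intensities a difference would be hard to measure. The synthetases activate long-chain fatty acids for oxidation or for lipid synthesis. Acsl1, a main synthetase of oxidative and fat-storing tissues, read 8.73, 8.52 and 8.91 in control and 9.47, 9.41 and 9.49 in NICD1 cells, and rose by 0.74 (SE 0.099; limma adjusted p = 0.0027). Acsl4, which prefers arachidonic acid and related polyunsaturated chains, read 10.29, 10.32 and 10.28 against 10.77, 10.84 and 10.87. It rose by 0.53 (SE 0.053; limma adjusted p = 0.000621). For both genes, every NICD1 array lay above every control array.

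Acsl5, which resides on mitochondria and endoplasmic reticulum, read 10.78, 10.83 and 10.79 in control and 11.06, 11.04 and 11.06 in NICD1 cells. Its rise of 0.25 (SE 0.048; limma adjusted p = 0.0132) was the smallest called, and the call ended without NICD1 replicate 1 (0.0536) or NICD1 replicate 3 (0.0566). Acsl3, which resides on lipid droplets and endoplasmic reticulum, went the other way. It read 9.98, 9.88 and 9.83 in control and 9.17, 9.26 and 9.16 in NICD1 cells, and fell by 0.70 (SE 0.063; limma adjusted p = 0.00041).

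The synthetases can also be set against each other within single arrays. The difference Acsl1 minus Acsl3, which cancels any shift common to an array, was -1.25, -1.37 and -0.91 on the control arrays and 0.30, 0.15 and 0.33 on the NICD1 arrays. It moved by 1.44 on the log2 scale. Acsl4 minus Acsl3 moved by 1.23 and Acsl5 minus Acsl3 by 0.95. Since each gene is read by its own probes, these differences say nothing of which synthetase is the more abundant. In all, 7 gene pairs were compared in this way, chosen after their values were seen. Each gave an exact two-sided permutation p of 0.1 (0.1 after Benjamini-Hochberg adjustment), the smallest that 3 arrays against 3 allow. The groups did not overlap for any pair. Apart from Acadl minus Acadm, every pair joined a gene higher on all NICD1 arrays than on any control array to one lower on all of them. Acadl minus Acadm joined a gene lower on all NICD1 arrays to one with a difference of 0.02. The separation of the 7 pairs and this p therefore follow from the choice of pairs and give no further support.

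**Figure D2:**
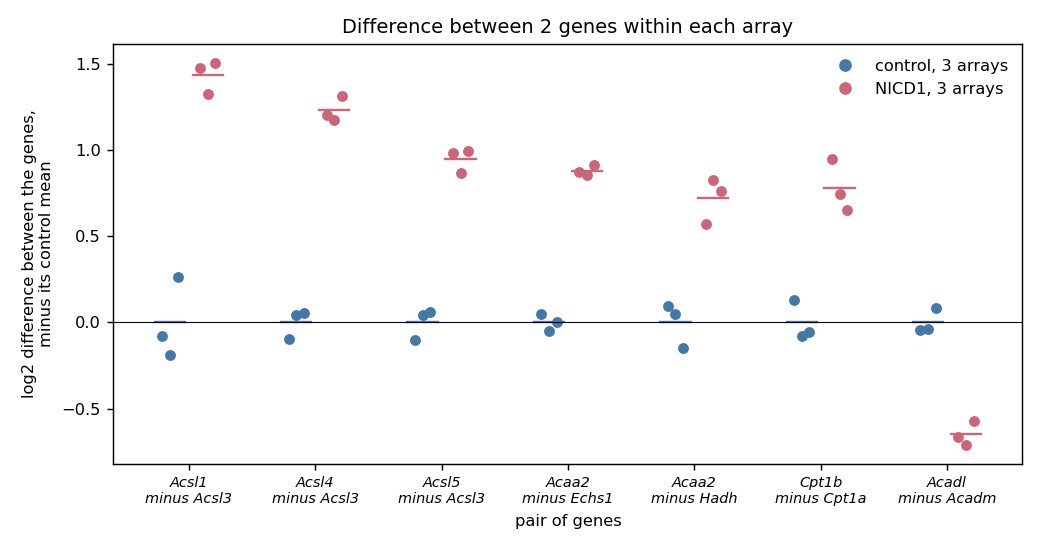
Difference in log2 intensity between the genes of a pair within each array, minus the control mean of that difference (vertical axis), for 7 gene pairs (horizontal axis), with control arrays in blue, NICD1 arrays in red and lines at group means. The NICD1 points stand apart from the control points for every pair, by 1.44 for Acsl1 minus Acsl3 and by -0.65 for Acadl minus Acadm. The pairs were chosen after their values were seen.

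Carnitine palmitoyltransferase 1 makes the acylcarnitines that cross into mitochondria and is the step at which malonyl-CoA restrains oxidation. Cpt1a, encoding the liver-type form that is also the main form of kidney, read 10.56, 10.49 and 10.46 in control and 9.90, 10.07 and 10.09 in NICD1 cells. All NICD1 arrays were lower than all control arrays, and the mean fell from 10.50 ± 0.05 to 10.02 ± 0.10 (SD, n = 3 each), by 0.48 (SE 0.069; limma adjusted p = 0.00356).

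Cpt1b, the muscle-type form, read 7.61, 7.33 and 7.32 in control and 7.76, 7.73 and 7.66 in NICD1 cells. Its groups did not overlap, but the difference of 0.30 (SE 0.088) was not called (limma adjusted p = 0.0684). Control replicate 1 was the highest control, and without it the difference was 0.39 and called (0.00913). Omitting any other array gave differences of 0.25 to 0.33, none of them called (limma adjusted p 0.111 to 0.189). Cpt1b was called in 6 of the 15 alternatives and not in 9. With all arrays kept, the calls came with repeated quantile normalisation, removal of the dimmest 30% of genes and a pseudocount of 16. They also came with limma's trend and robust options and with array weights (limma adjusted p 0.0212 to 0.0441 across these settings). Cpt1b minus Cpt1a within arrays moved by 0.78. Of 7 measured heart and skeletal muscle markers, 5 lay above background in at least 1 group, against 62.8% of all genes. Tnnt2 rose and 6 were not called (14.3% called, against 14.7% of all genes). The summed log2 level of the 7 was 41.2 to 41.7 in control and 42.1 to 42.9 in NICD1 arrays. The part of these markers in the Cpt1b value was not tested.

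Among the other shuttle genes, Crat fell. Crat, a carnitine acetyltransferase that buffers acetyl-CoA, read 9.98, 9.96 and 9.83 in control and 9.47, 9.60 and 9.66 in NICD1 cells. It fell by 0.34 (SE 0.073; limma adjusted p = 0.0207), a call that ended when array 1 or 2 of either group was left out (adjusted p 0.06 and 0.0739 for the controls, 0.0647 and 0.0577 for NICD1). The translocase Slc25a20, which exchanges acylcarnitine for carnitine across the inner membrane, read 8.79 to 8.95 in control and 8.63 to 8.72 in NICD1 cells and was not called (-0.17; limma adjusted p = 0.142). Cpt2, which returns the chains to coenzyme A inside, overlapped between groups (8.65 to 8.68 and 8.55 to 8.66; difference -0.07).

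Of the 4 acyl-CoA dehydrogenases, which take the first step of each turn and differ in preferred chain length, Acadl fell and the others were not called. Acadl, the long-chain enzyme, read 10.52, 10.57 and 10.67 in control and 9.99, 9.89 and 10.00 in NICD1 cells. It fell by 0.63 (SE 0.062; limma adjusted p = 0.000629), to a level 1.55-fold lower. Acadvl, the very-long-chain enzyme, had groups that did not overlap (8.93 to 8.99 and 8.78 to 8.84) and a difference of -0.15 (limma adjusted p = 0.102). It was called in only 1 of 15 alternatives, the one without the dimmest 30% of genes (limma adjusted p = 0.0482). Medium-chain Acadm and short-chain Acads overlapped between groups, with differences of 0.02 and 0.06. Acadl minus Acadm within arrays was 2.44, 2.44 and 2.57 in control and 1.82, 1.77 and 1.91 in NICD1 cells. This pair was chosen after its values were seen. Its drop mostly repeats the fall of Acadl and gives no further support.

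The later steps of the turn moved apart. Echs1, the short-chain hydratase, read 9.68, 9.75 and 9.59 in control and 9.13, 9.16 and 9.19 in NICD1 cells, and fell by 0.51 (SE 0.061; limma adjusted p = 0.00151). Hadh, the medium- and short-chain hydroxyacyl-CoA dehydrogenase, read 8.96, 8.98 and 9.07 against 8.77, 8.52 and 8.67. Its fall of 0.35 (SE 0.076; limma adjusted p = 0.0221) was no longer called when array 2 or 3 of either group was left out (adjusted p 0.0641 and 0.0771 for the controls, 0.0588 and 0.0621 for NICD1). Both genes were lower on every NICD1 array than on any control array.

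Acaa2, the mitochondrial thiolase that closes the turn, was higher. It read 9.59, 9.56 and 9.45 in control and 9.87, 9.88 and 9.96 in NICD1 cells, a rise of 0.37 (SE 0.062; limma adjusted p = 0.00744). Within arrays, Acaa2 minus Echs1 went from -0.09, -0.19 and -0.14 to 0.73, 0.72 and 0.77, and Acaa2 minus Hadh moved by 0.72. The subunits of the mitochondrial trifunctional protein, which carries out these same steps on long chains, were not called. Hadha read 10.78 to 10.84 in control and 10.67 to 10.82 in NICD1 cells, and Hadhb 9.75 to 9.95 and 9.80 to 9.82, with a difference of -0.04 for each and overlapping groups.

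Auxiliary enzymes rearrange the double bonds of unsaturated chains so that oxidation can proceed. Decr1, the dienoyl-CoA reductase, read 7.23, 7.16 and 7.20 in control and 6.77, 6.82 and 7.0 in NICD1 cells and fell by 0.33 (SE 0.072; limma adjusted p = 0.022). The call ended without any 1 array other than NICD1 replicate 3, with adjusted p from 0.0552 to 0.0787 in those 5 fits and 0.0122 without NICD1 replicate 3. Eci1, a mitochondrial isomerase, read 7.50 to 7.78 in control and 7.09 to 7.37 in NICD1 cells without overlap, a difference of -0.35 (SE 0.103) that was not called (limma adjusted p = 0.0678). The related isomerase Eci2 overlapped between groups (8.88 to 9.17 and 9.0 to 9.18).

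By limma, 0 of 3 electron transfer and 0 of 3 peroxisomal members were called, against 14.7% of all genes, and 0 had an unadjusted p under 0.05. With 3 genes in each, these counts do not set either group apart from all genes. Etfa and Etfb, the subunits of the electron transfer flavoprotein, and Etfdh, the oxidoreductase that passes its electrons to ubiquinone, had differences of 0.02, -0.02 and -0.01 (SE 0.050 to 0.056), with overlapping groups. Among peroxisomal genes, the thiolase Acaa1a read 8.06 to 8.17 in control and 7.93 to 8.18 in NICD1 cells, and the bifunctional enzyme gene Ehhadh, at the background level, 5.52 to 5.82 and 5.71 to 5.84. Crot, the octanoyltransferase that exports shortened chains, read 9.22 to 9.24 and 9.14 to 9.21. Its groups did not overlap, yet its difference was -0.04 (limma adjusted p = 0.643).

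**Figure D3:**
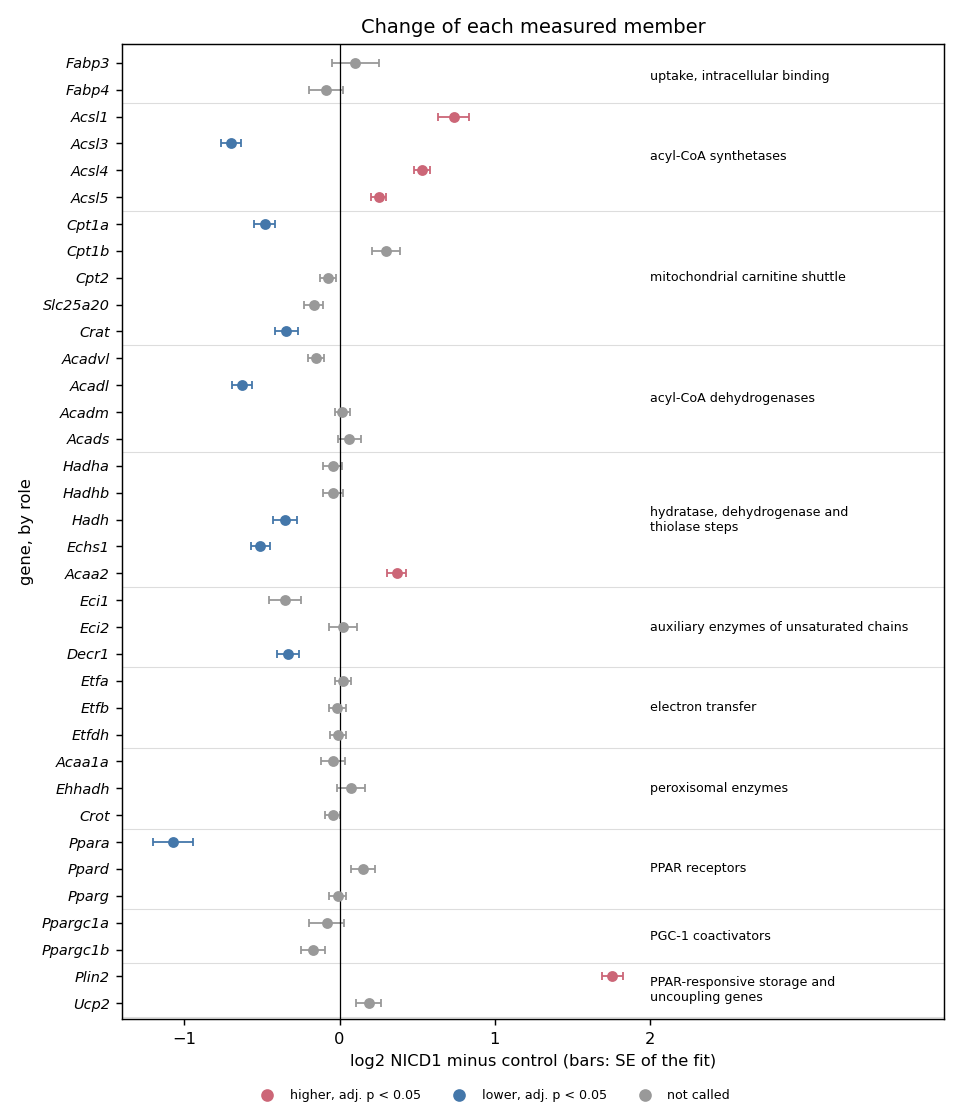
Difference in log2 intensity, NICD1 minus control (horizontal axis), for the 36 measured members grouped by role (vertical axis), with bars of 1 standard error from the limma fit, red for higher, blue for lower and grey for members not called. Plin2 at 1.76 and Ppara at -1.07 mark the ends, the synthetases lie on both sides of 0, and the 3 electron transfer genes have differences of 0.02, -0.02 and -0.01.

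Genes of the pathway outside the 37 were read from 6 further lists. Among other mitochondrial beta-oxidation genes, which include the oxidation of branched-chain amino acids, 2 of 18 rose (11.1%, against 7.45% of all genes) and 7 fell (38.9%, against 7.22%), with a median of -0.15. Mlycd, whose enzyme breaks down malonyl-CoA, the inhibitor of CPT1, averaged 7.68 ± 0.06 in control and 8.74 ± 0.06 in NICD1 arrays (SD, n = 3 each), a rise of 1.06 (SE 0.060; limma adjusted p = 5e-05). Acadsb, the short/branched-chain dehydrogenase, fell by 1.04 (SE 0.083; limma adjusted p = 0.000239), from 7.56 ± 0.16 to 6.52 ± 0.03. Nudt7, a peroxisomal coenzyme A hydrolase placed in this list, rose by 0.61 (SE 0.095). Ivd, Hsd17b10, Pcca, Acad8, Hibch and Mcee (below background in both groups), most of them enzymes of amino acid breakdown, were also called lower, by 0.24 to 0.45, and were named after their values were seen. Of these 6, Hsd17b10 was the only one still called whichever array was left out. The falls in this list numbered 4 when control array 1 or 3 or NICD1 array 3 was omitted, 3 for NICD1 array 2 and 2 for NICD1 array 1.

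Lipid droplet and lipolysis genes also changed in both directions, with 4 of 20 higher, 3 lower (35.0% called, against 14.7% of all genes) and a median of 0.02. Vldlr, a receptor for triglyceride-rich lipoproteins, rose by 1.59 (SE 0.083; limma adjusted p = 3.65e-05). Hilpda, a droplet protein that inhibits the lipase ATGL, averaged 8.30 ± 0.04 in control and 8.94 ± 0.03 in NICD1 arrays (SD, n = 3 each) and rose by 0.64 (SE 0.052). Pnpla2, which encodes ATGL, fell by 0.30 (SE 0.053; limma adjusted p = 0.00918), and Dgat2, which makes triglyceride, fell by 0.53 (SE 0.054). The monoglyceride lipase Mgll rose by 0.71, and the lysosomal lipase Lipa fell by 0.32. Lpl, the lipoprotein lipase, rose by 0.41 (limma adjusted p = 0.0435), a call lost in 9 of 15 alternatives. It ended without any 1 array other than NICD1 replicate 3. It also ended with median centring, repeated quantile normalisation, the replicate block and the 0.01 threshold. Pnpla2, Mgll, Lipa and Lpl were named after their values were seen. Of 9 adipocyte markers, 0 were called by limma, against 14.7% of all genes, and 0 had an unadjusted p under 0.05. With 9 genes, these counts do not set the markers apart from all genes. Of the 9, 4 (Adipoq, Lep, Aqp7 and Cidec) lay below background in both groups. Plin1, Cfd, Retn, Lipe and, in NICD1 arrays, Adrb3 lay above it, as did 62.8% of all genes in at least 1 group. The summed log2 level of the 9 was 49.0 to 49.2 in control and 48.9 to 49.6 in NICD1 arrays.

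Of 17 further PPAR targets, 1 was called higher and 3 lower (23.5% called, against 14.7% of all genes, and 17.6% lower, against 7.22%), with a median of -0.12. The desaturase genes Fads2 and Fads1 fell by 0.90 (SE 0.078) and 0.85 (SE 0.119), the phosphatidate phosphatase and coregulator gene Lpin1 fell by 0.54 (SE 0.064), and the thioredoxin-binding Txnip rose by 0.62 (SE 0.055). Fads1 was named after its values were seen, as were the next genes. Pdk4, a classical PPAR target that restrains glucose oxidation, read 6.25 ± 0.16 in control and 5.90 ± 0.11 in NICD1 cells (SD, n = 3 each), and the difference missed the threshold (limma adjusted p = 0.0535). The lipase inhibitor gene Angptl4, another such target, read 5.87 ± 0.21 and 5.67 ± 0.12, the latter below background, and was not called (adjusted p = 0.317). Of the 17 targets, 10 lay above background in at least 1 group. In all, 13 were not called, Pdk4 and Angptl4 among them.

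Of 24 partners, coregulators and mitochondrial biogenesis genes, 0 were called higher by limma and 3 fell (12.5% called, near the 14.7% of all genes), with a median of -0.02. At an unadjusted p under 0.05, 1 was higher and 5 were lower. All genes were not counted at that threshold, so these numbers have no share to be set against. Prkaa2, a catalytic subunit of the energy sensor AMPK, fell by 0.34 (SE 0.048; limma adjusted p = 0.00337). Rxra, which encodes a partner of PPAR alpha, fell by 0.30 (SE 0.067; adjusted p = 0.0262), a call that ended when control array 1 or 2, or NICD1 array 2 or 3, was left out. The coactivator gene Ncoa2 fell by 0.32 (SE 0.081; adjusted p = 0.0398), and that call ended when control array 3 or any NICD1 array was omitted. The list's falls came down to 1 when NICD1 array 2 was omitted.

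Of 16 peroxisomal beta-oxidation and import genes, 1 rose and 2 fell (18.8% called, against 14.7% of all genes), with a median of 0.00. The lipid transfer protein and thiolase gene Scp2 fell by 0.52 (SE 0.080; limma adjusted p = 0.00508). The import receptor gene Pex7 had a fall of 0.25 whose call ended without any 1 control array, NICD1 replicate 2 or NICD1 replicate 3, and the transporter gene Abcd2, below background, a rise of 0.22 whose call ended without any 1 of the 6 arrays. Of 21 uptake, binding and thioesterase genes, 1 rose and 1 fell (9.52% called, against 14.7% of all genes), with a median of 0.03. The thioesterase Acot7 rose by 0.67 (SE 0.080), and the thioesterase Acot13 fell by 0.67 (SE 0.076).

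**Figure D4:**
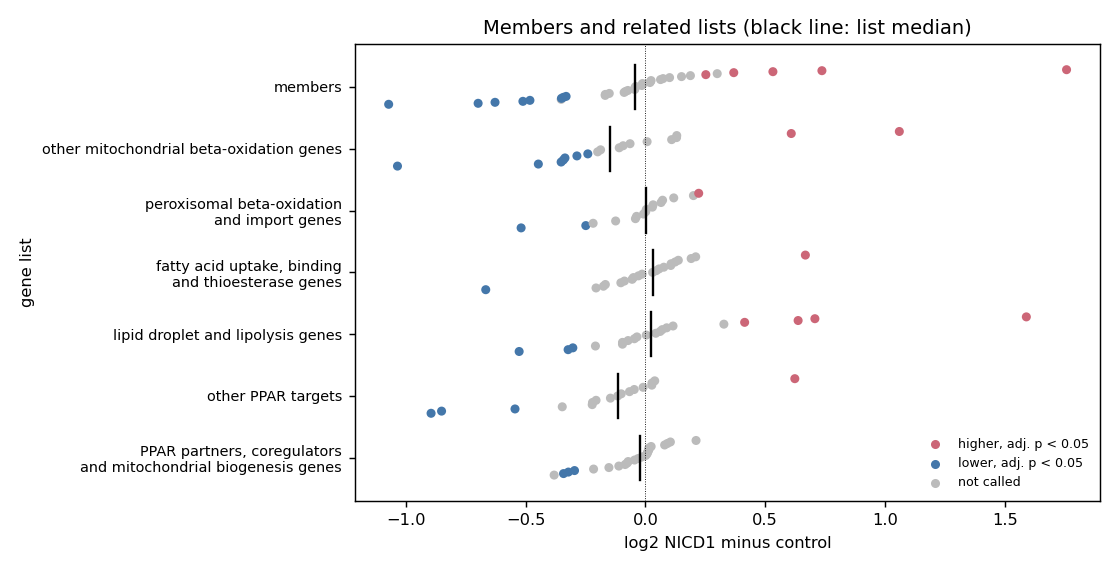
Difference in log2 intensity, NICD1 minus control (horizontal axis), of each gene in the members and in the 6 further lists (vertical axis), with red for higher, blue for lower, grey for genes not called and a black line at each list's median. The medians lie between -0.15 and 0.03, and Plin2 at 1.76 is the rightmost point.

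Markers of other cell types above background in at least 1 group were 3 of 10 for leukocytes and macrophages and 2 of 9 for endothelium. For fibroblasts and pericytes they were 5 of 10, and the share of all genes was 62.8%. Of 10 leukocyte and macrophage markers Cd68 rose (10% called), and of 10 fibroblast and pericyte markers Col1a1 rose (10%), against 14.7% of all genes. Of 9 endothelial markers Flt1 rose below background and Tek fell (22.2%). The summed log2 levels were 56.4 to 56.8 in control and 56.7 to 57.2 in NICD1 arrays for leukocytes. They were 48.8 to 49.6 and 48.7 to 49.5 for endothelium, and 56.0 to 56.7 and 57.8 to 58.2 for fibroblasts and pericytes. The calls of Cd68 and Flt1 ended when any 1 of 5 arrays was left out. The part of these genes in the members' values was not tested.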

How the data were processed

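Total RNA was turned into fragmented, biotin-labelled cDNA with whole-transcript reagents of Affymetrix, as the labels' protocols state. The deposited intensity values, 1 per probe set and array, came from RMA in Affymetrix Expression Console (source: the submitters' processing notes). RMA equalises distributions between arrays, so a shift common to most transcripts is removed. Array type, genome build and software versions: not given in the sources used here. Values were linear, and log2 was taken with no pseudocount. Probe sets with 1 gene symbol in the platform annotation (18511 of 36685, with 575 holding several and 17599 none) were averaged per symbol. No gene was filtered out and the file gives no detection call. The list of chemosensory genes behind the background level was widened to symbols of the Or form after the data were seen.

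Groups and replicate numbers came from the sample titles. They were compared by limma 3.58.1 (lmFit, eBayes) in R 4.3.3, with group as the single term, two-sided, which gave every adjusted p in the text. The script was tested on simulated data. The labels do not say whether replicates were separate cultures. The p-values therefore reflect the spread between these samples alone, and that spread may be technical. The labels give no batch. The 3 arrays per group limit the precision.

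The members and lists were chosen with earlier results of these data known. The named genes were all measured members, up to 3 called genes of each further list with the smallest adjusted p, and genes marked as chosen after their values were seen. Listed genes that lack a value are not analysed here. Promoter windows were taken from RefSeq (GRCr8). Alternatives were the brightest probe set in place of the mean, centring on array medians, repeated quantile normalisation, a pseudocount of 16, removal of the dimmest 30% of genes, limma's trend and robust options, array weights, the replicate number as a block, a threshold of 0.01 and omission of each array. Matplotlib 3.10.9 (Python 3.11.15) drew the figures.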

Additional observations from a re-analysis of the deposited data

How the results depend on the processing

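Against 5 rises and 8 falls among the members, the falls numbered 5 with the replicate number as a block and 5 at the 0.01 threshold. All genes gave 1919 and 1473 calls in those settings instead of 2666. Leaving out arrays in turn gave 5 to 7 falls, and 1830 to 2486 calls among all genes. In the other alternatives the members' counts stayed within 1.5 times. The replicate block ended the calls of Acsl5, Crat, Hadh and Decr1. Same-numbered arrays of the groups did not deviate together (correlations of -0.03, -0.01 and -0.01 across genes), and no array correlated best with its own number, so the numbers were not treated as pairs. Among 23 members not called, 20 were called in none of the 15 alternatives, Cpt1b in 6, Eci1 in 3 and Acadvl in 1.

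Sign changes occurred for 10 uncalled members when arrays were left out. Their leave-one-out ranges were -0.068 to 0.23 for Fabp3, -0.0032 to 0.038 for Acadm, -0.090 to 0.0058 for Hadhb, -0.057 to 0.087 for Eci2, -0.043 to 0.016 for Etfb, -0.034 to 0.017 for Etfdh, -0.091 to 0.034 for Acaa1a, -0.012 to 0.14 for Ehhadh, -0.044 to 0.020 for Pparg and -0.18 to 0.035 for Ppargc1a. These differences have no settled direction. With 3 arrays per group and no detection calls, changes of genes near background, such as Pparg and Ppargc1a, were not measurable with confidence.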
